A study of Mus musculus with 5 samples.

Results

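*Hmga1*, *Hmga2*, *Lin28a*, *Lin28b*, *Igf2bp1*, *Igf2bp2* and *Igf2bp3* are 7 of the 32286 features counted in single cells of mouse synovial sarcoma (SyS), and they were taken by symbol as the oncofetal chromatin and RNA-binding genes. Single-cell RNA-seq was performed on 5 limb tumours of the *hSS2* mouse, which carries human *SS18::SSX2* at the *Rosa26* locus and received TATCre, a cell-permeant Cre protein, into the limb at 8 days of life to turn the fusion on. All 5 tumours carry the fusion and there is no fusion-free tissue among them, so the comparators are the other cells of the same tumours. The labels give the histology as biphasic (BP, 2 tumours), monophasic (MP, 1), monophasic with biphasic (MP+BP, 1) and poorly differentiated with monophasic (PD+MP, 1). Both BP labels begin with the same number, whose meaning was not stated, so these tumours may not be independent, and the injected Cre can reach any cell of the limb.

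HMGA proteins bind the minor groove of AT-rich DNA through AT-hooks and shape chromatin, and they are abundant in the embryo and scarce in most adult tissues. LIN28 proteins bind the precursors of the let-7 microRNAs and block their maturation, while mature let-7 in turn represses the mRNAs of *Lin28*, *Hmga2* and *Igf2bp1*. IGF2BP proteins bind and stabilise mRNAs such as those of *Igf2* and *Myc*. *Igf2bp1* and *Igf2bp3* are largely fetal, whereas *Igf2bp2* stays on in many adult tissues. Reactivation of these genes is common in tumours, which is why they are called oncofetal.

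Since let-7 is known to repress *Lin28*, *Hmga2* and *Igf2bp1*, the let-7 sequences are shown first, with the seed (bases 2 to 8) in capitals. Of 11 distinct let-7 and miR-98 sequences from the 5′ arm in RefSeq (GRCm38.p6), 10 share the seed of let-7a, and let-7j is the exception.
let-7a-5p: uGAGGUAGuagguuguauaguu
let-7g-5p: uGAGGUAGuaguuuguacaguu
let-7d-5p: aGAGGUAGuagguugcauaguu
let-7j: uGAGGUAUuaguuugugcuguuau

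The letters that pair with this seed, CTACCTC on the mRNA strand, were searched in the longest annotated 3′ UTR of each protein-coding gene (GENCODE M21, GRCm38). Each of the 7 genes held at least 1 match, whereas 9.02% of the 21037 genes with an annotated 3′ UTR did. Among the 7449 genes whose 3′ UTR is at least 1500 bases long the share was 17.7%. *Hmga2*, *Lin28b* and *Igf2bp1* held 4 matches each, in 3′ UTRs of 3014, 4445 and 6337 bases. Of all genes 0.152% held 3 or more, and of those with a 3′ UTR of at least 1500 bases 0.416% did. Since *Lin28*, *Hmga2* and *Igf2bp1* were known let-7 targets in advance, these shares are a background and not a test of the members. *Lin28a* held 2, and *Hmga1*, *Igf2bp2* and *Igf2bp3* held 1 each. The sites below are the 4 of *Hmga2* and the first of each other gene, with the match in capitals, and with the A that follows it where there is one.
Hmga2 site 1: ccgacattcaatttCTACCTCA
Hmga2 site 2: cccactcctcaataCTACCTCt
Hmga2 site 3: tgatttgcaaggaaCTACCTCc
Hmga2 site 4: atcaaaacacactaCTACCTCt
Hmga1 site 1: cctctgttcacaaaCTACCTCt
Lin28a site 1: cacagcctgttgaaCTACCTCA
Lin28b site 1: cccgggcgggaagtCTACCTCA
Igf2bp1 site 1: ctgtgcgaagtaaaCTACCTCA
Igf2bp2 site 1: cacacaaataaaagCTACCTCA
Igf2bp3 site 1: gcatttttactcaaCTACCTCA

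In *Hmga2* the sites lay on the minus strand at chr10:120364224-120364245, chr10:120362987-120363008, chr10:120362549-120362570 and chr10:120361691-120361712, and began 58, 1295, 1733 and 2591 bases after the stop codon. The first sites of *Lin28b* (chr10:45381022-45381043) and *Igf2bp3* (chr6:49086787-49086808) began 36 and 548 bases after it. Those of *Igf2bp1* (chr11:95961778-95961799), *Igf2bp2* (chr16:22059473-22059494) and *Lin28a* (chr4:134005189-134005210) began 1715, 1313 and 909 bases after it, all on the minus strand. The site of *Hmga1* (chr17:27563278-27563299, plus strand) began 801 bases after it and occurs with the same letters in *Hmga1b*, a near-identical copy. A match is a description of letters, and mature microRNAs were not measured here.

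The counts are unique molecular identifiers (UMIs), 1 per captured RNA molecule. The matrices held 51670 cells, between 8931 and 11565 per tumour, with 89996321 to 118649103 UMIs per tumour. After filtering 39559 cells remained, and 27409 of them, in 17 clusters, were named SyS-like from markers of the tumour cells. Macrophage-like cells numbered 3874, endothelial-like cells 2422 and stromal cells 1398 (1251 pericyte-like and 147 fibroblast-like, 122 of the latter in PD+MP). PD+MP held only 80 endothelial-like cells. Another 3326 low-UMI cells in 2 clusters carried SyS markers but stayed unnamed. PD+MP also differed from the other tumours in *Xist* (0.360 CPM in its SyS-like cells and at least 1489 in the others), so its label cannot be told apart from the sex of the animal. Of 51437 barcodes, 231 occurred in more than 1 tumour. Levels are given as UMIs of a gene in 1000000 UMIs (CPM) of all cells of a class in a tumour, and since each gene is counted at its own 3′ end they were compared between cells and not between genes.

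*Hmga2* was the member with the widest gap between tumour cells and the rest. It lies on chr10:120361275-120476469 (GRCm38, minus strand), and none of the 822 stretches of 90 bases at its transcripts' 3′ ends occurs in another gene. In SyS-like cells it stood at 532 CPM in BP replicate 1, 706 in BP replicate 2, 270 in MP, 918 in PD+MP and 508 in MP+BP. The lowest tumour, MP, was still far above the other main classes, whose ranges over tumours were 3.72 to 46.6 CPM in endothelial-like, 4.57 to 26.6 in macrophage-like and 15 to 77.1 in stromal cells. On average 85.9% ± 6.5 of SyS-like cells held an *Hmga2* UMI (SD, n = 5 tumours). The share was 65.4% ± 14.4 after each cell was thinned to 3000 UMIs, against 3.90% ± 4.1 in endothelial-like and 3.31% ± 2.0 in macrophage-like cells. By edgeR's quasi-likelihood test with the tumour as a block, *Hmga2* exceeded its stromal level in SyS-like cells with a log2 difference of 3.83 ± 0.33 (SE, adjusted p = 9.8e-05). Against endothelial-like cells the log2 difference was 5.34 ± 0.31 (adjusted p = 8.4e-07), and against macrophage-like cells 4.93 ± 0.24 (adjusted p = 2.8e-08). With doublets kept the differences fell to 2.11, 2.57 and 2.35 and were still called.

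Free RNA from broken cells reaches every droplet, so the *Hmga2* level of the other classes was set beside that of the SyS markers. In endothelial-like cells the summed SyS markers stood at 3.06% to 5.34% of their SyS-like level in the same tumour, and *Hmga2* at 1.07% to 5.07% of its own. In macrophage-like cells the ranges were 3.67% to 5.53% for the markers and 1.27% to 3.42% for *Hmga2*. In stromal cells they were 5.45% to 18.1% and 3.14% to 15.2%, with MP+BP highest in both. *Hmga2* stood above the markers in endothelial-like cells of PD+MP (5.07% against 3.79%, 27 UMIs in 80 cells) and by little in stromal cells of MP (5.53% against 5.45%), and below them in the other pairs of these 3 classes and 5 tumours. In rarer classes, each counted where a tumour gave at least 30 cells, the order went in both directions. In mast-like cells *Hmga2* stood at 28.9% against 8.15% in MP and at 29.4% against 23.5% in MP+BP, and in neutrophil-like cells of BP replicate 1 at 25% against 14.1%. In T- or NK-like cells it lay above the markers in 3 of 5 tumours, on 5 to 14 UMIs in each tumour. Dendritic-like cells lay below them in all 4 tumours. The part of free RNA in these values was not tested.

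*Hmga1* behaved differently from *Hmga2*: it was low in stromal cells but similar in macrophage-like and SyS-like cells in CPM. It lies on chr17:27556497-27563674 (plus strand), and 53.6% of its 3′ stretches of 90 bases also occur in *Hmga1b* or in *AI413582*, which overlaps it on the other strand, so its counts are uncertain. In SyS-like cells it stood at 4.85 CPM in BP replicate 1, 6.35 in BP replicate 2, 7.71 in MP, 9.63 in PD+MP and 6.11 in MP+BP. In macrophage-like cells of the same tumours it stood, in the same order, at 7.53, 6.71, 6.86, 9.13 and 7.72 CPM. These ranges overlapped almost entirely, while stromal cells gave 1.41, 1.39, 0, 0 and 0.877 CPM, or 4 UMIs in all, and did not overlap with SyS-like cells. The log2 difference was 3.30 ± 0.74 over stromal (edgeR, SE, adjusted p = 0.011) and 1.26 ± 0.36 over endothelial-like cells (adjusted p = 0.016), where levels ranged from 1.42 to 4.54 CPM.

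Against macrophage-like cells *Hmga1* was lower in SyS-like cells by edgeR (log2 difference -0.75 ± 0.22, adjusted p = 0.012). The call was lost in 4 of 19 refits. Among these were libraries scaled by total counts only (-0.16, adjusted p = 0.53) and the fit without BP replicate 1 (-0.62, adjusted p = 0.062). Total counts moved the median log2 difference of all genes in this comparison from 0.24 to 0.83. A change of scaling shifts all genes by about the same amount, so the distance of *Hmga1* from the median gene cannot test the call. The call thus depended on the scaling. Pooled over tumours, the CPM of *Hmga1* in SyS-like cells was 0.901 times that in macrophage-like cells (counting interval 0.775 to 1.05). Among classes seen in at least 4 tumours, T- or NK-like cells were highest at 11.4 ± 2.3 CPM (SD, n = 5), but on 12 UMIs in all. In descending order macrophage-like (7.59 ± 0.97), SyS-like (6.93 ± 1.82) and dendritic-like cells (5.54 ± 3.33, n = 4) followed, whose neighbours did not differ beyond their spread. Endothelial-like (2.32 ± 1.27) and stromal cells (0.735 ± 0.70) came last, and their spreads overlapped.

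The copy *Hmga1b* (chr11:120762794-120764419) followed *Hmga1* between classes but not between tumours. In SyS-like cells *Hmga1b* was lowest in BP replicate 2 and highest in MP+BP, and *Hmga1* lowest in BP replicate 1 and highest in PD+MP. *Hmga1b* stood at 1.02, 1.01, 1.32, 1.57 and 1.39 CPM in SyS-like cells of BP replicates 1 and 2, MP, MP+BP and PD+MP. It had no UMI in stromal cells, which made it at least 3.08-fold higher in SyS-like cells against a floor of 3 UMIs over the class, although the test missed the threshold (edgeR adjusted p = 0.060). It was higher than in endothelial-like cells (log2 difference 1.90 ± 0.59, adjusted p = 0.021) and lower than in macrophage-like cells (-0.93 ± 0.34, adjusted p = 0.033). Since 74.2% of its 3′ stretches are shared, the calls of the pair are not separate evidence.

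Both *Lin28* genes were close to the detection limit. *Lin28a* (chr4:134003330-134018841, minus strand) gave 8, 13, 5, 12 and 1 UMIs in SyS-like cells of BP replicates 1 and 2, MP, MP+BP and PD+MP, or at most 0.169 CPM, and it passed the count filter of no comparison between classes. Stromal and endothelial-like cells had 0 UMIs, which allows a level of up to 0.407 and 0.167 CPM at 3 UMIs over the class, above its mean of 0.104 ± 0.063 CPM (SD, n = 5) in SyS-like cells, so no difference was detectable at this depth. Macrophage-like cells had 2 UMIs, giving a ratio of 1.24 (95% counting interval 0.322 to 10.6).

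*Lin28b* (chr10:45376620-45486395, minus strand) was better covered, with 95, 122, 31, 44 and 73 UMIs in SyS-like cells of BP replicates 1 and 2, MP, MP+BP and PD+MP. These are 1.47, 1.34, 0.419, 0.621 and 1.01 CPM, so both BP tumours were highest and MP lowest. Macrophage-like cells gave 2 UMIs in all and stromal cells 1, and the pooled level in SyS-like cells was 11.6 times (3.19 to 96.3) and 7.23 times (1.29 to 286) theirs. Endothelial-like cells gave 4 UMIs, 3 of them in BP replicate 2. By edgeR *Lin28b* was higher than in macrophage-like (adjusted p = 0.0044) and endothelial-like cells (log2 difference 1.91 ± 0.69, adjusted p = 0.039), and not called against stromal cells (2.38 ± 1.10, adjusted p = 0.14). The endothelial call was lost when any 1 of BP replicate 1, MP, MP+BP or PD+MP was left out (adjusted p between 0.060 and 0.13) and with DESeq2 (adjusted p = 0.061).

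*Igf2bp1*, the founding member of its family, was counted at 815 UMIs in SyS-like cells. It lies on chr11:95957163-96005940 (minus strand) and stood at 4.11 CPM in BP replicate 1, 1.76 in BP replicate 2, 2.07 in MP, 0.929 in PD+MP and 2.40 in MP+BP. The BP replicates thus spanned most of the range. Macrophage-like cells gave 1.23, 0, 0.571, 0 and 0 CPM, below SyS-like cells in every tumour, and the log2 difference was 2.18 ± 0.64 (edgeR, SE, adjusted p = 0.012). Endothelial-like cells reached 1.69 CPM and stromal cells 2.77, both in BP replicate 2, overlapping SyS-like cells, and the differences of 0.77 ± 0.44 (adjusted p = 0.17) and 0.63 ± 0.57 (adjusted p = 0.44) were not called. Stromal cells held 8 *Igf2bp1* UMIs, and at this depth a difference of this size could not be told from the spread between tumours.

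*Igf2bp2* was counted in several classes beside the tumour cells. It lies on chr16:22059009-22163299 (minus strand), shares none of its 3′ stretches, and stood in SyS-like cells at 50.2 CPM in BP replicate 1, 24.0 in BP replicate 2, 46.9 in MP, 11.5 in PD+MP and 47.7 in MP+BP. Endothelial-like cells gave 18.4, 9.0, 16.8, 3.45 and 12.4 CPM in the same order, lower than SyS-like cells in each tumour, and both classes were highest in BP replicate 1 and lowest in PD+MP. The PD+MP value rests on 2 UMIs. The endothelial-like *Igf2bp2* level was 26.0% to 37.5% of that in SyS-like cells, far above the 3.06% to 5.34% of the SyS markers. The log2 difference was 1.33 ± 0.17 (edgeR, SE, adjusted p = 0.00012). Stromal cells gave 36.0, 15.3, 12.4, 14 and 18.4 CPM, which overlapped with SyS-like cells, and the difference of 0.60 ± 0.31 was not called (adjusted p = 0.18). It was called with pericyte-like cells alone (1.07, adjusted p = 0.0087), of which PD+MP gave 38, with 0 *Igf2bp2* UMIs. It was also called without PD+MP (0.90, adjusted p = 0.021), the tumour with the lowest SyS-like level and with most fibroblast-like cells. Why the call changed was not tested.

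In macrophage-like cells *Igf2bp2* stood at 10.5 CPM in BP replicate 1, 6.91 in BP replicate 2, 6.57 in MP, 22.5 in PD+MP and 8.49 in MP+BP. PD+MP was the only tumour in which macrophage-like cells exceeded SyS-like cells, at 196% of their level, and the other 4 lay between 14% and 28.8%. With all 5 tumours the log2 difference was 1.09 ± 0.48 and not called (edgeR adjusted p = 0.069), whereas without PD+MP it was 1.73 (adjusted p = 9.1e-06). Of 143 UMIs in macrophage-like cells of PD+MP, 133 came from 400 cells of cluster 19, which was led by *Spp1*, *Pf4* and *Lgals3*, at 45.2 CPM (95% Poisson interval 37.9 to 53.6). In BP replicate 1 the 158 cells of that cluster stood at 13.3 CPM (7.90 to 21.1), and in PD+MP the 394 macrophage-like cells of cluster 8 at 2.34 CPM (0.859 to 5.09).

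*Igf2bp3* (chr6:49085223-49214957, minus strand) was higher in SyS-like cells than in macrophage-like and endothelial-like cells. It stood at 23.3 CPM in BP replicate 1, 26.2 in BP replicate 2, 10.8 in MP, 19.3 in PD+MP and 13.4 in MP+BP. Every value lay above the endothelial-like range of 4.23 to 7.59 CPM and the macrophage-like range of 2.57 to 6.94. The log2 differences were 1.18 ± 0.25 (edgeR, SE, adjusted p = 0.0030) and 1.57 ± 0.28 (adjusted p = 0.00061). Stromal cells gave 4.94, 9.71, 9.48, 4.43 and 14 CPM, reaching the SyS-like level in MP+BP, and the difference of 0.84 ± 0.40 was not called (adjusted p = 0.15). The neighbouring gene *Malsu1* overlaps *Igf2bp3* on the other strand, and 20% of the 3′ stretches of *Igf2bp3* occur in it, so part of its counts is uncertain.

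**Figure D1:**
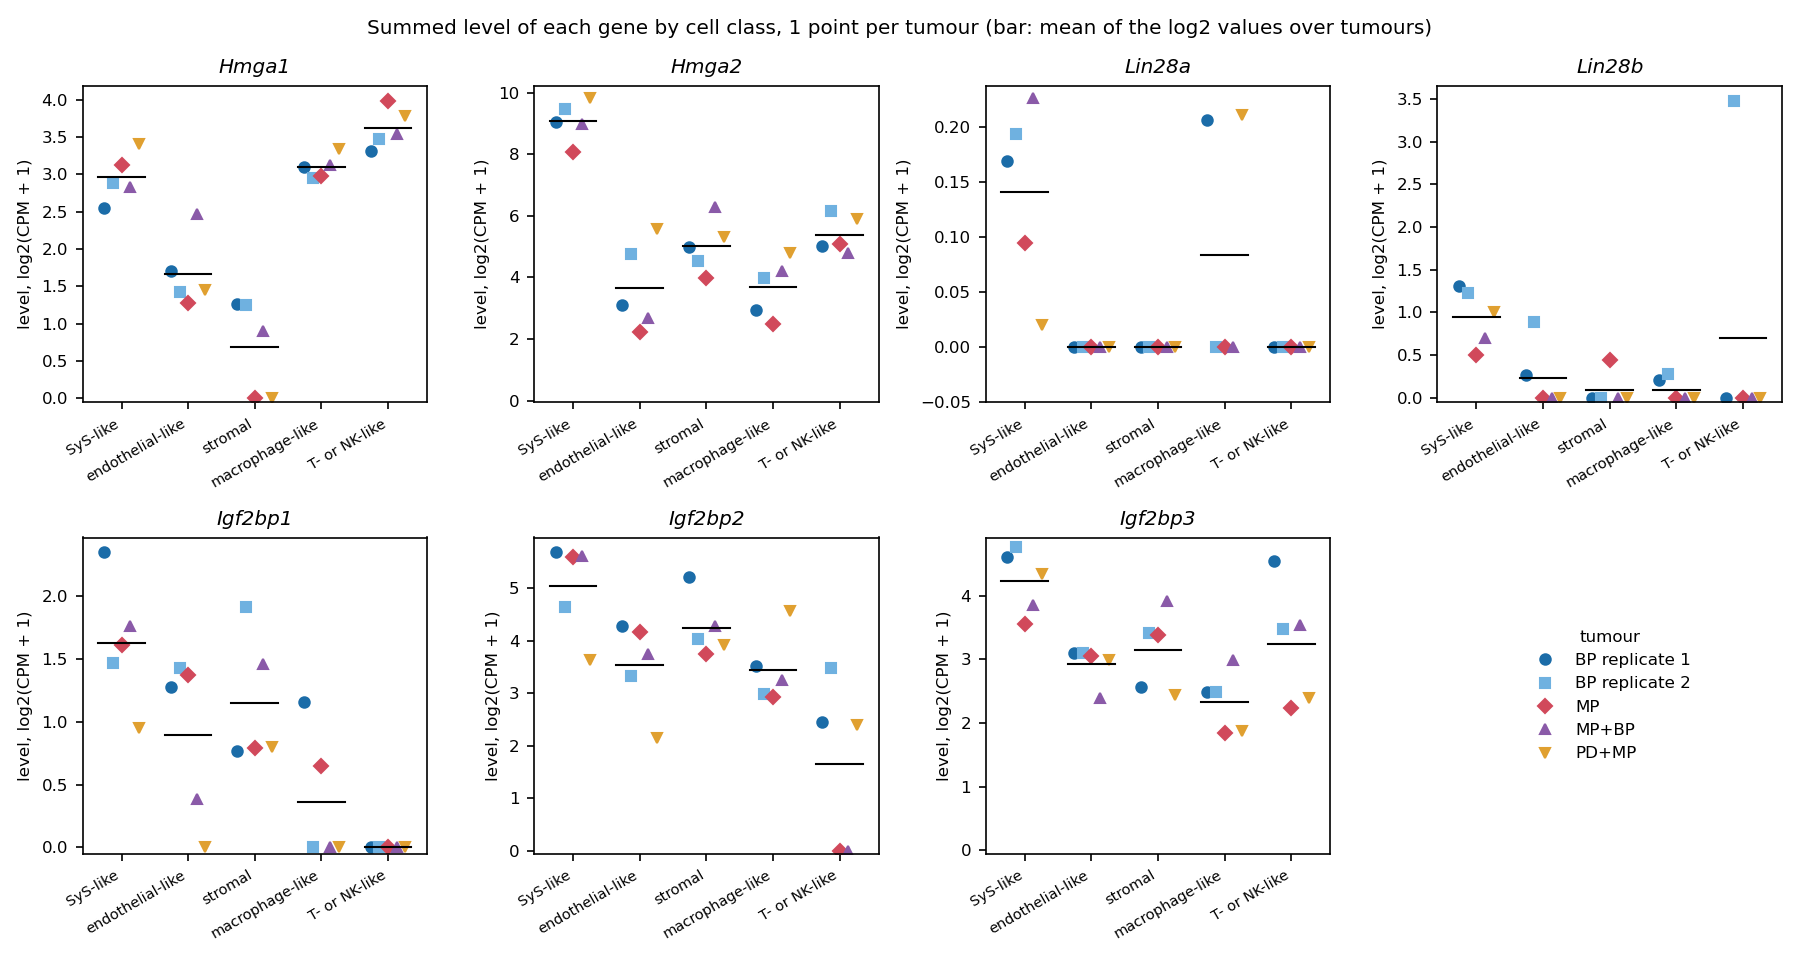
Level of each gene as log2(CPM + 1) (y axis) by cell class (x axis), with 1 point per tumour with at least 30 cells of the class and a bar at the mean of the log2 values. *Hmga2* in SyS-like cells (270 to 918 CPM) is separate from all other classes, whereas *Hmga1* in SyS-like cells overlaps with macrophage-like cells and *Igf2bp2* with stromal cells. The single high point of *Lin28b* in T- or NK-like cells is 1 UMI.

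In all, 2 of the 6 members tested were higher than in stromal cells, 5 of 6 than in endothelial-like and 4 of 6 than in macrophage-like cells, and 1 (*Hmga1*) was lower than in macrophage-like cells. Over all genes tested, 15.8% were called higher and 13.2% lower against stromal, 30.5% and 22.9% against endothelial-like, and 36.4% and 26.7% against macrophage-like cells. The median log2 difference of the 6 members was 1.61, 1.29 and 1.88 in these comparisons, and that of all genes 0.16, 0.17 and 0.24. Fewer stromal UMIs were available for testing, so a member called against one class and not another is not shown to differ between them, which was not tested.

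**Figure D2:**
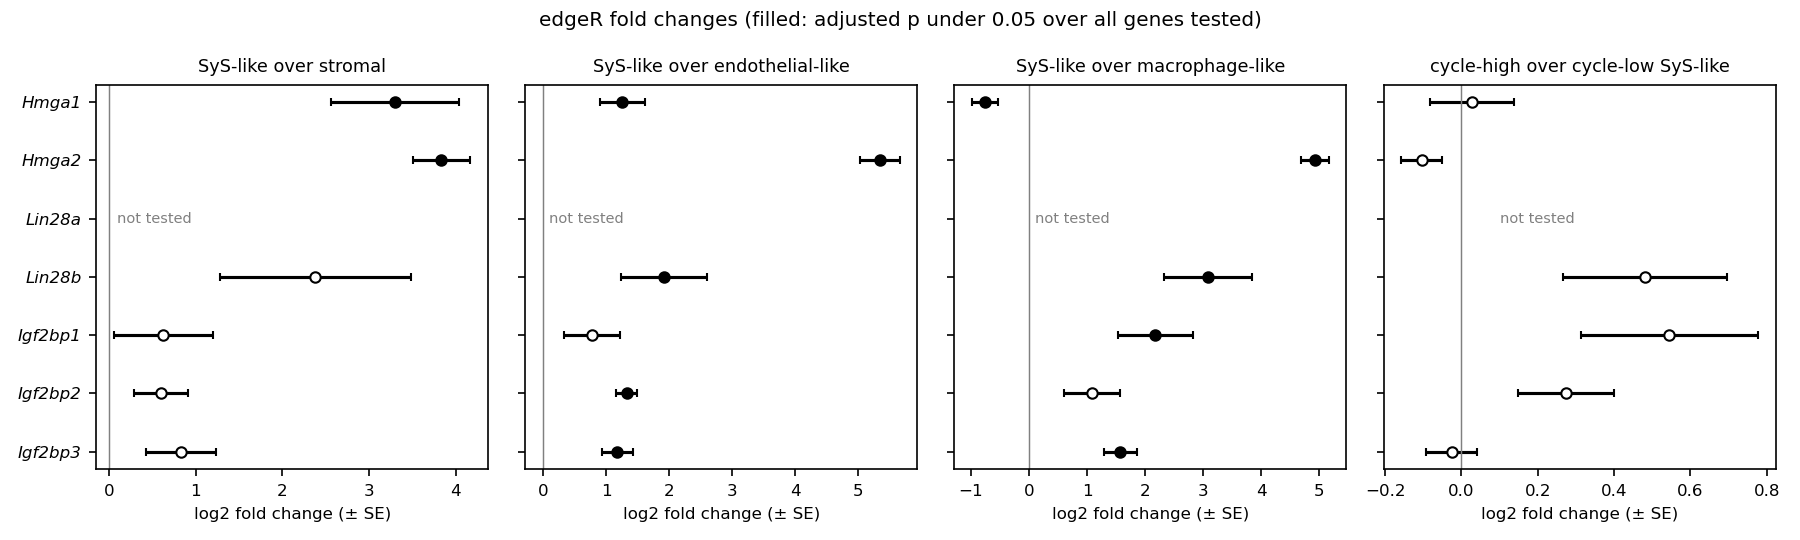
log2 fold change with its SE (x axis, edgeR, 5 tumours) of each gene (y axis) in 4 comparisons, with filled points where the adjusted p over all genes was under 0.05. *Hmga2* has the highest value in each of the 3 class comparisons (3.83, 5.34 and 4.93), and no point is filled between cycle-high and cycle-low cells.

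Genes around these members were read from lists of the same pathways. The background for each list is the share of all genes called higher, 15.8%, 30.5% and 36.4% against stromal, endothelial-like and macrophage-like cells. The shares called lower were 13.2%, 22.9% and 26.7%. Among 14 genes of let-7 and microRNA processing, 5 were higher and 0 lower than in stromal cells. *Drosha*, which cuts primary microRNAs in the nucleus (log2 difference 1.06), *Ago1*, an effector that carries them (0.92), and *Xpo5*, which exports the precursors (0.74), were the highest called. Against endothelial-like cells 7 were higher and 1 lower, and against macrophage-like cells 5 and 2. *Tut7*, which tags let-7 precursors with uridine, was the lowest called in both (-1.15 and -0.96), and *Trim71*, itself a fetal let-7 target, was higher in both (1.05 and 3.27). The median of this list was 0.46, 0.39 and 0.28 against stromal, endothelial-like and macrophage-like cells, beside 0.16, 0.17 and 0.24 over all genes. Against macrophage-like cells the 5 of 14 called higher lay near the share of all genes.

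The 19 known let-7 targets outside the members were split in direction. Against stromal cells 4 were higher and 3 lower, with *Mycn*, a transcription factor gene (2.02), *Ccnd2*, a G1 cyclin (1.89), and *Arid3b*, a DNA-binding factor gene (1.87), at the top and *Myc* (-2.66) at the bottom. Against endothelial-like cells 6 were higher and 8 lower, the lowest being *Insr*, the insulin receptor (-3.70), and against macrophage-like cells 6 were higher and 8 lower of 18 tested, the lowest being the receptor gene *Tgfbr1* (-4.06). The list medians were 0.14, -0.50 and 0.07 in the same order, beside 0.16, 0.17 and 0.24 over all genes.

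Among 10 other fetal genes, 6 of 9 tested were higher than in stromal, 8 of 8 than in endothelial-like and 7 of 8 than in macrophage-like cells, with list medians of 1.77, 4.34 and 3.84. *Gpc3*, a fetal proteoglycan, was among the highest in each (3.11, 5.09 and 4.24). *Mdk*, a growth factor, was among the highest against stromal (2.59) and endothelial-like cells (4.49), and at 3.65 below the list median against macrophage-like cells. *Sall4*, a stem cell transcription factor gene, had 1167 UMIs in SyS-like cells and 0 in stromal and endothelial-like cells, which made it at least 7.70-fold and 18.8-fold higher. Of 7 other high mobility group genes, 5, 5 and 6 were higher in SyS-like cells, led by *Hmgb3* against stromal (2.26) and endothelial-like (1.33) and by *Hmgn3* against macrophage-like cells (3.59), and none was lower. Of 27 cell cycle genes 18, 17 and 10 were also higher in SyS-like cells, and 0, 0 and 1 lower. The part of cell division in the high mobility group values was not tested. Of 6 partners in IGF2BP1 particles, 1, 0 and 0 were higher and 0, 2 and 3 lower, with *Ybx1*, an mRNA-packaging gene, at -0.49 and -0.93 against endothelial-like and macrophage-like cells.

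The second question was whether the level in tumour cells went with the histology in the label. The 3 tumours whose label names BP were compared with the other 2 over sums of SyS-like cells. No member was called (edgeR, smallest adjusted p of 0.53 for *Lin28a*), and neither was any other of the 20786 genes tested, 0%, although without adjustment 1182 genes lay above and 830 below at a p under 0.05, and DESeq2 called 448 and 104. Without MP edgeR called 374 and 234 genes, none of them a member. An exact permutation test of 3 against 2 tumours cannot go below p = 0.2, two-sided, which *Hmga1* and *Lin28a* reached (0.47 after adjustment over the 7 members).

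*Hmga1* was lower on the BP side, at 5.77 ± 0.81 CPM (SD, n = 3) against 8.67 ± 1.36 (n = 2), and the sides did not overlap, as for 10.6% of all genes tested in that direction. Its edgeR log2 difference was -0.64 ± 0.29 (adjusted p = 0.54). *Lin28a* was higher on the BP side, at 0.145 ± 0.023 CPM against 0.0407 ± 0.038, also without overlap, as for 16.9% of all genes, but on 33 UMIs against 6. It passed the count filter of this comparison only through tumours of the BP side. A higher BP side was thus favoured in advance, and nothing is concluded from it. For the other 5 members the sides overlapped. They also overlapped for *Hmga1b*, the copy of *Hmga1*, which was highest in MP+BP (1.57 CPM). Its log2 difference was -0.23 ± 0.39 (edgeR, SE, adjusted p = 0.86).

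For *Hmga2*, both tumours without BP in the label lay at the ends of the range, MP (270 CPM) as the lowest and PD+MP (918 CPM) as the highest of all tumours. Their mean of 594 ± 458 CPM (SD, n = 2) lay next to 582 ± 108 (n = 3) on the BP side. *Igf2bp2* and *Igf2bp1* were lowest in PD+MP, at 22.9% and 22.6% of their highest tumour, BP replicate 1. *Igf2bp3* and *Lin28b* were lowest in MP and next lowest in MP+BP, and highest in the BP replicates. *Hmga2* was also lowest in MP and next lowest in MP+BP. The BP replicates differed by 2.09 times in *Igf2bp2* and 2.33 times in *Igf2bp1*, and by 1.33 times in *Hmga2*, which shows how far tumours of 1 label lay apart.

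**Figure D3:**
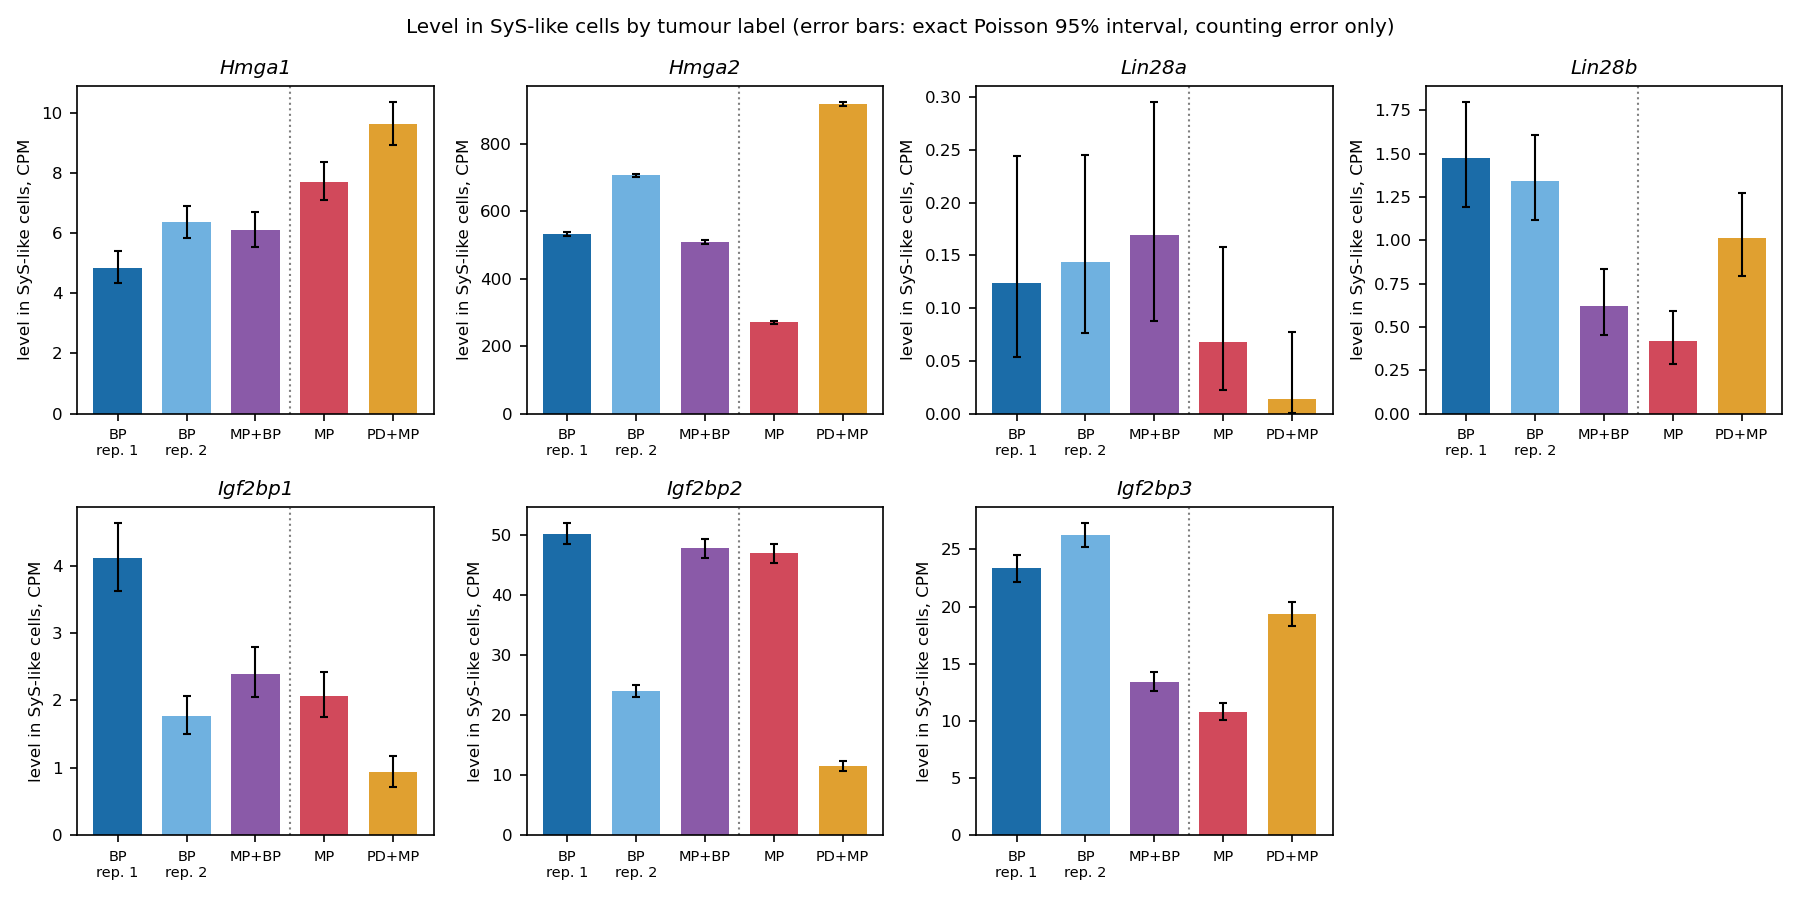
Level in SyS-like cells in CPM (y axis) for each tumour (x axis), with the 3 tumours whose label holds BP left of the dotted line and exact Poisson 95% intervals that cover counting error only. *Hmga1* is the only gene with ample counts whose sides do not overlap, and *Hmga2* spans its whole range right of the line.

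The third question was how the members varied among SyS-like cells. In 17 clusters of at least 100 cells *Hmga2* ranged from 179 CPM (95% Poisson interval 174 to 185) in cluster 7 to 1219 (1191 to 1247) in cluster 10, a ratio of 6.80 (3.68 over 12 clusters at a resolution of 0.5, where the lowest stood at 329 CPM). Cluster 7 was mostly from MP (89.7% of its cells) and cluster 10 mostly from PD+MP (99.3%), and cluster 10 held cells of few UMIs (median 2918) with 4.62% of them from *Malat1*, a nuclear RNA. Within tumours, over clusters with at least 100 cells of that tumour, *Hmga2* went from 299 to 871 CPM in BP replicate 1, 169 to 939 in BP replicate 2, 168 to 612 in MP, 561 to 1691 in PD+MP and 278 to 742 in MP+BP. It was therefore present in every such cluster of every tumour.

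*Igf2bp2* varied more between clusters than *Hmga2*, from 5.71 CPM (4.52 to 7.13) in cluster 12 to 84.3 (75.7 to 93.7) in cluster 23, a ratio of 14.8 (9.58 at a resolution of 0.5). Cluster 12 was from PD+MP (99.9% of its cells), and the 4 lowest clusters (9, 10, 12 and 18) were those of which PD+MP held 99.3% to 100% of the cells. PD+MP was not low throughout, since its cells in cluster 3, which was led by *Adgrl3*, *Npnt* and *Cped1* and came mostly from MP+BP, stood at 131 CPM of *Igf2bp2* and 1691 CPM of *Hmga2*. Cluster 3 was also the highest for *Igf2bp2* within BP replicate 1 (87.9 CPM), BP replicate 2 (35.7) and MP (75.6). *Igf2bp3* ranged from 9.65 CPM (8.47 to 10.9) in cluster 7 to 29.8 (28.5 to 31.2) in cluster 2, *Hmga1* from 4.18 (3.58 to 4.86) in cluster 1 to 10.7 (9.41 to 12.2) in cluster 18, and *Igf2bp1* from 0.293 (0.0798 to 0.750) in cluster 12 to 4.69 (3.58 to 6.04) in cluster 21 (0.682 to 3.56 at a resolution of 0.5). Clusters and tumours overlap so far that cluster and tumour levels cannot be told apart for most of these ranges.

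**Figure D4:**
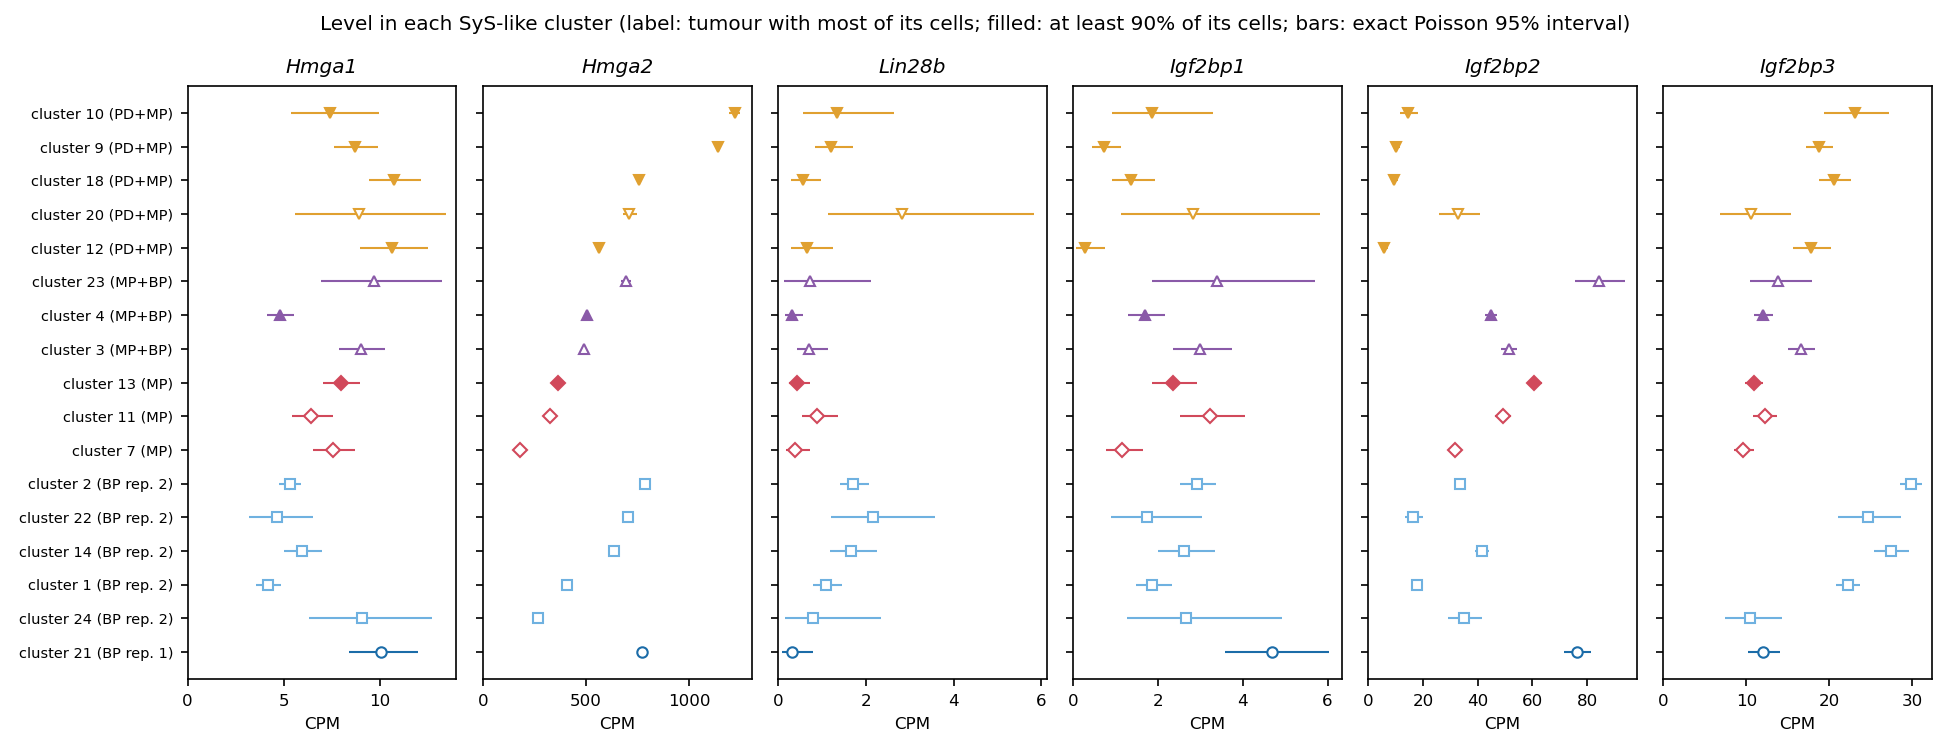
Level in CPM (x axis) of 6 genes in each SyS-like cluster (y axis, named with the tumour that gives most of its cells), with exact Poisson 95% intervals and filled points where that tumour gives at least 90%. The 2 highest clusters for *Hmga2* (1137 and 1219 CPM) and the lowest for *Igf2bp2* (5.71 CPM) come from PD+MP, whose cluster 12 stands at 561 CPM of *Hmga2*. *Lin28a* is left out for its low counts.

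The unnamed low-UMI cells with SyS markers differed from SyS-like cells of the same tumour in *Hmga2* and *Igf2bp3*, and less uniformly in other members. In the 4 tumours with at least 30 such cells, *Hmga2* stood at 907, 1123, 481 and 895 CPM in BP replicate 1, BP replicate 2, MP and MP+BP, above the SyS-like level of each. *Igf2bp3* stood at 45.7, 50.2, 30.7 and 19.2 CPM, again above it in each. *Hmga1* was higher in BP replicate 2 (10.3 against 6.35 CPM in SyS-like cells) and lower in the other tumours, as in MP (2.56 against 7.71). *Igf2bp2* was higher except in MP+BP (46.0 against 47.7), and *Igf2bp1* went in both directions. The low-UMI cells had 3.44% to 5.26% of their UMIs from *Malat1* against 1.03% to 1.88% in SyS-like cells, and 9.04% to 12.1% from mitochondrial genes against 3.66% to 4.89%. The part of these shares in the differences was not tested.

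The fourth question was whether the members went with cell division. In each tumour, the 20% of SyS-like cells with the highest share of UMIs in a list of 27 cell cycle genes were set against the 50% with the lowest. No member was called among 6 tested, whereas 19.8% of all 17635 genes were higher and 20.8% lower. *Hmga2* stood at 552, 695, 256, 478 and 798 CPM in cycle-high cells of BP replicates 1 and 2, MP, MP+BP and PD+MP, and at 522, 706, 266, 538 and 999 CPM in cycle-low cells. It was lower in 4 of 5 tumours, with a log2 difference of -0.10 ± 0.053 (edgeR, SE, adjusted p = 0.15).

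*Hmga1* moved in both directions, with 7.16 ± 2.41 CPM in cycle-high and 6.86 ± 1.39 in cycle-low cells (SD, n = 5, log2 difference 0.03 ± 0.11, adjusted p = 0.86). *Igf2bp1* was higher in cycle-high cells of 4 of 5 tumours (0.55 ± 0.23, adjusted p = 0.092), as were *Igf2bp2* (0.27 ± 0.13, adjusted p = 0.12) and *Lin28b* (0.48 ± 0.22, adjusted p = 0.11). *Igf2bp1* was called without BP replicate 1 (0.83, adjusted p = 0.017) and *Igf2bp2* without PD+MP (0.38, adjusted p = 0.030). *Igf2bp3* differed by -0.03 ± 0.066 (adjusted p = 0.79). Of 7 other high mobility group genes 6 were higher in cycle-high cells, led by *Hmgb2* (3.62), *Hmgn2* (1.21) and *Hmgb3* (1.17). Of 6 partners in IGF2BP1 particles 5 were higher, led by *Ybx1* (0.53) and *Syncrip* (0.41). Cycle-high cells were deeper than cycle-low cells in each tumour, and the part of depth in these values was not tested.

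**Figure D5:**
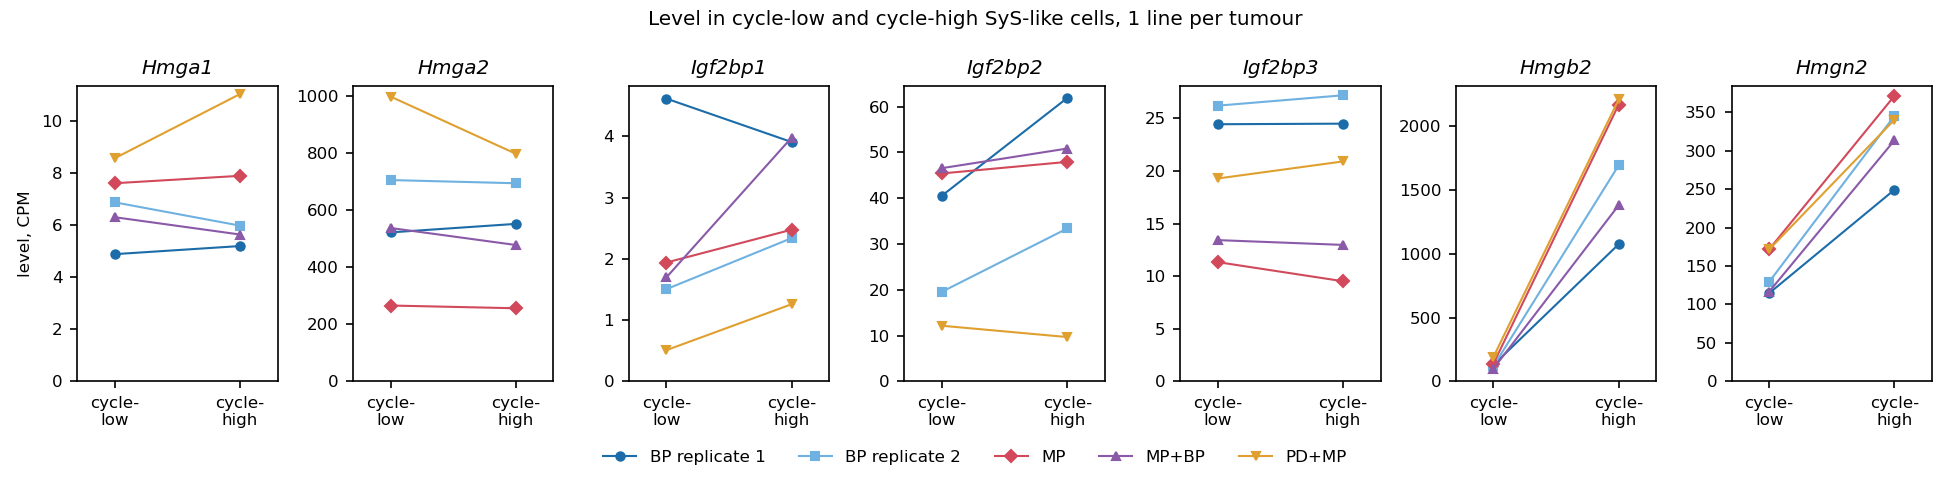
Level in CPM (y axis, from 0) in cycle-low and cycle-high SyS-like cells (x axis), with 1 line per tumour, for 5 members and for *Hmgb2* and *Hmgn2*. The lines of *Hmga1*, *Hmga2* and *Igf2bp3* cross or run nearly flat, and those of *Hmgb2* and *Hmgn2* rise in all 5 tumours.

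Genes whose pattern was most like that of a member were named over 29 sums of 6 classes by tumour, as a description. For *Hmga2* these were *1700006J14Rik* (Pearson r of log2(CPM + 1) 0.94), *Epha5* (0.93), *Adgrb3*, *Pax3* and *Gria3* (0.92 each). *Adgrb3* is among the SyS markers that named the SyS-like class, so its likeness follows in part from the naming. *1700006J14Rik* overlaps *Hmga2* on the opposite strand, and whether the counting used strand is not given in the sources used here, so reads of the pair may not be told apart. For *Hmga1* they were *Plcl2* (0.89), *Kdm3b* (0.87), *Plekhb2*, *Bach2* (0.85 each) and *Traf2* (0.84). For *Igf2bp1* they were *A730056A06Rik* (0.87), *Atp6v0a4*, *Rab6b*, *Flnc* and *Gm28376* (0.82 to 0.83), and for *Igf2bp2* *Pfkm* (0.85), *Sync*, *Cldn11*, *A730056A06Rik* and *6330411D24Rik* (0.79 to 0.81). For *Igf2bp3* they were *Txlng* (0.84), *Chic1*, *Nrcam*, *1700109H08Rik* and *BC065397* (0.81 to 0.83). The sums of a tumour share a library, and for *Igf2bp1* many of them hold few UMIs.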

How the data were processed

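The authors ran Cell Ranger 7.2.0, as the file headers state, against mm10 per the labels, and deposited raw UMI counts by gene and cell for each of the 5 tumours. Whether intronic reads were counted is not given in the sources used here.

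Cells with at least 750 genes and at most 25% mitochondrial UMIs were kept. Doublets were removed in each tumour by the highest Scrublet scores (scanpy 1.11.5), at an expected 0.8% per 1000 cells. Leiden clusters (leidenalg 0.10.2, resolution 1) were built on 30 principal components of 3000 variable genes, from which the members and lists were left out, and took a class name from at least 3 of its markers. These names are rebuilt, and differences from the study may come from that.

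For each tumour and class the UMIs were added up and compared by edgeR 4.0.16 (TMM, filterByExpr, quasi-likelihood), with Benjamini-Hochberg adjustment over all genes and a threshold of 0.05, after checks on simulated data. The tumour was a block in comparisons between cells, since each pair of sums comes from 1 tumour. p-values measure the spread between these tumours. Poisson intervals (95%) and floors of 3 UMIs cover counting error only. Thinned shares left out cells under 3000 UMIs, as did the cycle comparison.

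The text names the 7 members and *Hmga1b*, up to 3 genes called in each direction per list and comparison, and for members with at least 500 UMIs the 5 genes of highest correlation. Members and lists were chosen with earlier results of these data known. Alternatives, including DESeq2 1.42.0, are given in the closing section.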

Additional observations from a re-analysis of the deposited data

Results flagged for a closer look

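In 25 sets, 1 for each member and class with enough UMIs (5 tumours each, and 4 for the 3 sets of dendritic-like cells), 4 held a tumour far from the others by Dixon's test, which chance alone gives in about 1 of 20 sets. *Igf2bp2* in macrophage-like cells of PD+MP stood at 22.5 CPM, against 6.57 to 10.5 in the other tumours. *Igf2bp2* in stromal cells of BP replicate 1 stood at 36.0 CPM, against 12.4 to 18.4 in the others. *Hmga1* in endothelial-like cells of MP+BP stood at 4.54 CPM, against 1.42 to 2.25. *Igf2bp3* in endothelial-like cells of MP+BP stood at 4.23 CPM, against 6.90 to 7.59.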

How the results depend on the processing

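Of 519 refits of a member's value, 489 kept the direction and the side of the threshold. The 12 called member values kept their direction in all 218 of their refits and their call in 204. Refits that gave no adjusted p for a member, as where its counts did not pass the filter, are left out of these numbers. With at least 10 counts required in every sum, which leaves fewer genes to test, 1 member was called against stromal, 1 against endothelial-like and 2 against macrophage-like cells, and over all genes 1415 were higher and 1535 lower, 2200 and 2164, and 3329 and 3117. When SyS-like sums were thinned down to the other class's depth, 1 member was called against stromal cells (1668 genes higher) and 3 against macrophage-like cells. Scaling by total counts only gave 4831 genes higher against stromal cells, and 10289 higher and 3114 lower against macrophage-like cells. Leaving out 1 tumour at a time gave 1761 to 3369 genes higher against stromal cells (1761 without BP replicate 1, 1888 without BP replicate 2) and 3 to 4 members against endothelial-like cells (3 without MP).

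Between labels, DESeq2 called 448 genes higher and 104 lower, and leaving out 1 tumour gave 0 to 374 higher and 0 to 234 lower, the highest counts without MP. The log2 difference of *Hmga2* ranged from -0.76 without MP to 1.07 without PD+MP, and that of *Igf2bp2* from -0.27 without PD+MP to 1.70 without MP. For the cycle, 811 genes were higher and 70 lower without the tumour block, no member was called with or without it, and leaving out 1 tumour gave 0 to 1 members (*Igf2bp1* without BP replicate 1, *Igf2bp2* without PD+MP). *Hmga1* then ranged from -0.072 without PD+MP to 0.078 without BP replicate 2. The top 10% of cells in place of 20% gave 1 member called (*Igf2bp2*, 0.34) and *Igf2bp3* at 0.12. Without the block, *Lin28b* against endothelial-like cells (adjusted p = 0.081) and *Igf2bp1* against macrophage-like cells (adjusted p = 0.058) lost their calls, and *Igf2bp2* against macrophage-like cells gained one (adjusted p = 0.047). *Lin28b* against macrophage-like cells lost its call with doublets kept (adjusted p = 0.051), and *Hmga1* against endothelial-like cells lost its call without BP replicate 2 (adjusted p = 0.054) or MP (adjusted p = 0.070). The cause of these changes was not tested.

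Thinned to 3000 UMIs per cell, the share of SyS-like cells with a UMI was 2.01% for *Hmga1*, 65.4% for *Hmga2*, 0.031% for *Lin28a*, 0.27% for *Lin28b*, 0.60% for *Igf2bp1*, 8.55% for *Igf2bp2* and 5.21% for *Igf2bp3*. At a resolution of 0.5 the highest cluster reached 3.56 CPM for *Igf2bp1* and 27.5 CPM for *Igf2bp3*, and the ratio of the highest to the lowest cluster was 3.68 for *Hmga2*, 5.22 for *Igf2bp1* and 9.58 for *Igf2bp2*, against 6.80, 16.0 and 14.8 at a resolution of 1. Counting the low-UMI cells as SyS-like, or leaving out SyS-like clusters of few UMIs, was chosen after seeing the data and changed no member's call. Depth limits *Lin28a* everywhere, *Lin28b* and *Igf2bp1* outside SyS-like cells, and *Hmga1* in stromal cells.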
